A study of Mus musculus with 3 samples.

Results

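The replication-dependent histone genes were taken as all genes of the deposited tables whose symbol starts with Hist1h, Hist2h, Hist3h or Hist4h, which gave 69 of 27998 genes. They comprised 6 genes of the linker histone H1 and 63 genes of the core histones, of which 19 encode H2A, 19 H2B, 12 H3 and 13 H4 by their symbols. The Hist1 symbols numbered 55 (chromosome 13), the Hist2 symbols 11 (chromosome 3), the Hist3 symbols 2 (chromosome 11) and Hist4 1 (chromosome 6). Single cells were sequenced from 3 tissues of adult Foxp3-EGFP mice (strain C.Cg-Foxp3tm2Tch/J), which carry a green fluorescent reporter at the gene of the regulatory T cell factor Foxp3. From epidermis, dermis and lymph node, cells positive for GFP, CD4, CD3 and CD45 were sorted, and each tissue gave 1 library. The skin layers were separated with thermolysin and the dermis was digested with collagenase, while lymph node was mashed, and no group carried a treatment. Both skin libraries were made with the 10x 3′ v3 kit and the lymph node library with the v2 kit, so tissue and kit cannot be told apart where skin is compared with lymph node. How many animals each library came from is not stated in the labels.

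Histones package DNA into nucleosomes, each built from H2A, H2B, H3 and H4, and H1 binds the DNA between nucleosomes. The replication-dependent genes lie in clusters, mostly lack introns and are transcribed in S phase, when new DNA needs new histones. Their mRNAs typically end in a stem-loop bound by the protein Slbp instead of a poly(A) tail, and they are degraded when replication stops. The kits used here prime on poly(A), so these genes are counted through transcripts that carry a tail or an internal run of A. Some of them can also give polyadenylated mRNA outside S phase. Replacement histones such as H3.3 and H2A.Z come from other genes with ordinary polyadenylated mRNA. T cells that divide make both kinds, and the proliferation genes Mki67 (a protein of the mitotic chromosome surface) and Top2a (a DNA topoisomerase) were used to mark such cells.

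The stem-loop is shown first because these kits prime on a tail or an internal run of A. How the capture of each member relates to these sequences was not tested. In GENCODE vM21 (GRCm38), 67 of the 69 members were found; Hist1h2bh and Hist1h2bm were not. A stem-loop was found after the stop codon in 43 members, in 23 of them with the letters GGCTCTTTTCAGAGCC, in 7 as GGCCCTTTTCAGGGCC and in 6 as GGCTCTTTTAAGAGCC. The lines below give the stem-loop in capitals and the 14 bases before it in lower case, for members that the results turn on.
Hist1h2ap, chr13:21833029-21833058, minus strand: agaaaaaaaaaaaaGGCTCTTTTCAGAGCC
Hist1h2ae, chr13:23570668-23570697, minus strand: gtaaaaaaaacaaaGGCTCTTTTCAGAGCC
Hist3h2a, chr11:58955158-58955187, plus strand: ttacagacaccaaaGGCTCTTTTCAGAGCC
Hist1h1c, chr13:23739498-23739527, plus strand: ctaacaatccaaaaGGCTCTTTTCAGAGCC
Hist1h1e, chr13:23621782-23621811, minus strand: cccaacaacccaaaGGCTCTTTTCAGAGCC
Hist1h3c, chr13:23745047-23745076, minus strand: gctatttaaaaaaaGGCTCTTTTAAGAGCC
Hist1h4d, chr13:23581936-23581965, plus strand: acccaaaaaccaaaGGCCCTTTTCAGGGCC
Hist2h4, chr3:96262939-96262968, minus strand: cccccatccctaacGGCCCTTTTTAGGGCC
Hist1h2ap has a run of 12 A directly before its stem-loop, and its annotated transcript ends 3 bases after the loop. In Hist3h2a, by contrast, 1643 annotated bases follow the stem-loop, in Hist2h4 1257, in Hist1h1e 1153 and in Hist1h1c 840. Hist1h1b is annotated only to its stop codon, so no stem-loop could be found in its transcript. A poly(A) signal after the stop codon (AATAAA or ATTAAA, on the transcript strand) was present in 21 members with a coding transcript. Among them were Hist3h2a, Hist1h1c, Hist2h4, Hist1h4d and Hist1h2ae, and the signal was not found in Hist1h2ap, Hist1h1e or Hist1h3c.

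The copies are alike, and reads of one can be counted for another. Of the 67 annotated members, 61 shared at least 1 stretch of 90 bases with another gene's transcript, 27 shared over 50% of such stretches and 3 shared all. Hist1h2ap shared 92.4% of its stretches, including its last one with Hist1h2ao, so its counts are uncertain between those genes. Hist1h1b shared none, Hist2h4 none, and Hist1h1c 5.71%. The last stretch of Hist1h1e is shared with Hist1h2be, whose annotation runs across it. The symbol Hist2h2bb stands for 2 gene identifiers, of which ENSMUSG00000050936 is a long noncoding RNA in that annotation, and Hist1h2al is annotated as a processed pseudogene.

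After keeping barcodes with at least 500 UMIs (unique molecule tags) and at most 10% mitochondrial UMIs, the epidermal library held 297 cells with 2205131 UMIs, the dermal library 875 cells with 4630059 UMIs and the lymph node library 9400 cells with 32906839 UMIs. Median UMIs per cell were 6671, 4726 and 3022 in that order. A Mki67 or Top2a UMI was found in 59 epidermal cells (19.9%), 167 dermal cells (19.1%) and 322 lymph node cells (3.43%), and these cells were also deeper, with medians of 8671, 5523 and 5108 UMIs against 6326, 4526 and 2993 in the others. The 7 T cell markers were all present in each library and summed to 3732, 4285 and 4852 CPM (UMIs scaled to a common library total). Foxp3 itself stood at 91.6, 146 and 21.8 CPM. Sums for keratinocyte markers were 26.8, 80.8 and 13.4 CPM, and those for dendritic cell markers 390, 375 and 206 CPM, most of it Cd74. No doublet caller was run and no doublets were removed, and whether the deepest cells hold more than 1 cell was not tested.

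The skin libraries shared barcodes, and this touches every epidermal value that follows. Of the kept barcodes, 41 were present in both epidermis and dermis, and 0 were shared with lymph node. In 29 of them the epidermal copy was deeper, by a median of 12.6-fold with a narrow range of 11.6 to 14.1. In 8 the dermal copy was deeper, by 20.2 to 23.7-fold, and 4 were within 5-fold. The 29 barcodes held 80.2% of the core histone UMIs of the epidermal library, against 23.8% of all its UMIs. Core histones made up 6270 CPM of their epidermal copies and 909 CPM of their dermal copies. All 12 epidermal cells with 5 or more Mki67 and Top2a UMIs had a barcode shared with dermis. From which tissue the cells behind these barcodes came was not tested, and values without them are given beside the main epidermal results. A single dermal cell, not in a shared barcode, held 319 of the 2734 dermal core UMIs, so the main dermal results are given without it too.

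Member transcripts were sparse in all 3 tissues. The 69 genes gave 5119 epidermal, 4288 dermal and 7783 lymph node UMIs, 17190 in all. Each kit tags the 3′ end, so values are per molecule and were not divided by transcript length. Over the 3 libraries, 61 members had at least 10 UMIs, 4 had fewer, and 4 (Hist1h2aa, Hist1h2ba, Hist1h2bq and Hist1h2br) were at 0. At least 20 CPM were reached by 19 members among epidermal cells, 13 among dermal cells and 3 among lymph node cells. The 12 replacement histone genes were far more abundant, at 4821, 5574 and 3852 CPM.

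Core histones summed to 1857 CPM (95% counting interval 1801 to 1915) in the epidermal library, 590 (569 to 613) in the dermal one and 183 (178 to 188) in lymph node. H1 summed to 464 CPM (436 to 493), 336 (319 to 353) and 53.6 (51.1 to 56.2). All intervals given here are exact and cover counting error only, since there is 1 library per tissue and cells of a library are not replicates. H2A was the leading class in the full epidermal library with 60.3% of the member UMIs, whereas H1 led in dermis with 36.2%. The H2A lead in epidermis was lost without the shared barcodes. There H1 was above H2A in cells with a Mki67 or Top2a UMI (419 against 330 CPM) and in the others (269 against 225 CPM). In lymph node H2A (27.6%), H2B (23.9%), H1 (22.7%) and H4 (20.9%) held similar shares, and H3 was lowest at 4.95%. Among barcodes found in 1 skin library the epidermal sums were 484 CPM for core histones (451 to 519) and 297 CPM for H1 (272 to 325), and the dermal sums were 604 and 337 CPM.

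**Figure D1:**
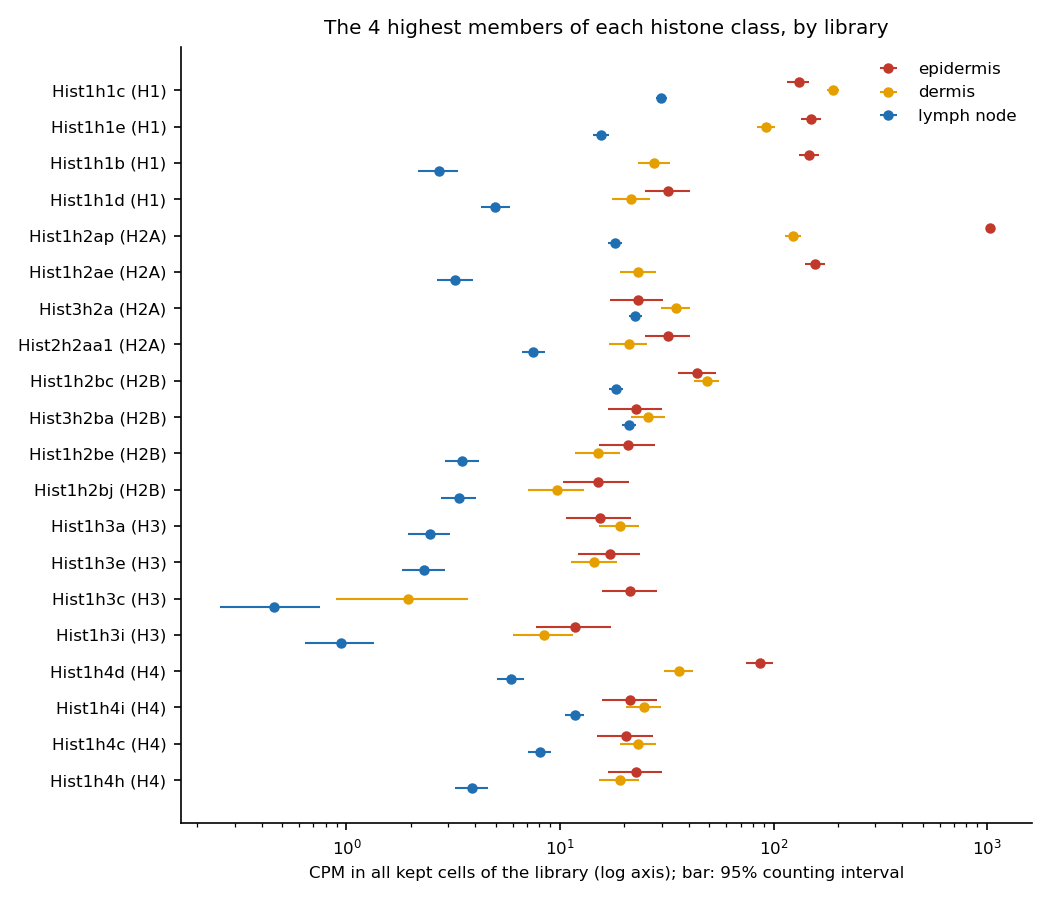
Points give the level of the 4 highest members of each histone class in all kept cells of each library, in CPM on a log axis, and bars give the 95% counting interval. Hist1h2ap in epidermis stands at 1026 CPM, above all other points, and Hist3h2a and Hist3h2ba lie within 21.0 to 35.0 CPM in all 3 libraries. Most of the UMIs behind that Hist1h2ap point lie in barcodes shared with dermis.

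Among the linker genes, Hist1h1c (H1.2; chr13:23738808-23740367, plus strand) gave 131 CPM in the epidermal, 190 in the dermal and 29.8 in the lymph node library. Hist1h1e (H1.4; chr13:23620629-23622558, minus strand) gave 149, 91.8 and 15.6 CPM. Hist1h1b (H1.5; chr13:21779883-21780625, minus strand) gave 147, 27.6 and 2.70 CPM. The order of these genes thus differed between the full libraries. In epidermis their intervals overlapped, while in dermis and lymph node Hist1h1c was highest and Hist1h1b lowest of the 3. Outside the shared barcodes Hist1h1b was lowest of the 3 in epidermis too, at 9.52 and 17.0 CPM in cells with and without a Mki67 or Top2a UMI. Hist1h1c was at 206 and 115 CPM there, and Hist1h1e at 175 and 119 CPM. Hist1h1d (H1.3) gave 32.2, 21.6 and 4.98 CPM in the full libraries. Hist1h1a (H1.1) stayed under 5 CPM in each library, and Hist1h1t, the testis linker histone, had 1 UMI in all.

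Hist1h2ap had the most UMIs of the core genes over the 3 libraries, 3428 in all. This H2A gene (chr13:21833026-21833507, minus strand) reached 1026 CPM (2262 UMIs) among epidermal cells, 123 CPM (570 UMIs) among dermal cells and 18.1 CPM (596 UMIs) among lymph node cells. Hist1h2ae, another H2A gene, gave 156, 23.3 and 3.22 CPM. Most of the epidermal UMIs of both genes lay in the shared barcodes. In the other epidermal barcodes Hist1h2ap was at 197 CPM in cells with a Mki67 or Top2a UMI and at 129 CPM in the rest. Hist1h2ae was at 12.7 and 13.3 CPM there. Hist3h2a (chr11:58954685-58956830, plus strand), an H2A gene outside the chromosome 13 cluster, gave 23.1, 35.0 and 22.5 CPM, and its neighbour Hist3h2ba, an H2B gene, gave 22.7, 25.9 and 21.0 CPM. These neighbours were the members with the narrowest spread between tissues among the 20 plotted. Both Hist3 genes held 18.4% of the member UMIs in lymph node, 6.58% in dermis and 1.97% in epidermis.

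Of the other H2B genes, Hist1h2bc was highest at 44.0, 48.6 and 18.3 CPM. The H3 genes were lower: Hist1h3a gave 15.4, 19.0 and 2.46 CPM and Hist1h3e 17.2, 14.5 and 2.31 CPM. Hist1h3c reached 21.3 CPM in epidermis, all of it in shared barcodes, but 1.94 and 0.456 CPM elsewhere. Of the H4 genes, Hist1h4d was highest in skin with 86.2 and 36.1 CPM, beside 5.87 in lymph node, where Hist1h4i was highest with 11.7 CPM.

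Cells with and without a Mki67 or Top2a UMI were compared within each library, to show which members go with these markers of dividing cells. In lymph node core histones were higher in the cells with such a UMI (3.08 times), H2A differed most of the classes (5.91 times) and the H1 sum differed less (1.89 times). Both full skin libraries had the same order. It was lost in epidermis without the shared barcodes, where H1 had a ratio of 1.56, H2A 1.47 and the core sum 1.36. It was lost in dermis without 1 cell, where the core sum and H2A both had a ratio of 1.02. Hist1h2ap and Hist1h1b were at least 2-fold higher in those cells in each full library. Hist1h2ap fell to 1.52 in epidermis without the shared barcodes and to 0.984 in dermis without that cell. Hist1h1b fell to 0.561 and 2.56, with the shared barcodes still in the dermal values. Hist1h1c and the Hist3 genes were at nearly the same level in dermis and lymph node.

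Core histones stood at 4961 CPM in epidermal cells with a UMI and 441 CPM in those without, a ratio of 11.3 (10.4 to 12.3). In dermis the levels were 809 and 520 CPM (1.55; 1.43 to 1.68), and in lymph node 501 and 162 CPM (3.08; 2.88 to 3.30). All 3 intervals lie above 1. When the shared barcodes were dropped, epidermis gave 616 and 453 CPM (1.36; 1.15 to 1.60) and dermis again a ratio of 1.55. The epidermal ratio thus moved from 11.3 to 1.36 when 41 of 297 cells were left out. These 41 included all 12 epidermal cells with 5 or more marker UMIs and were deeper, with a median of 13158 UMIs against 6444. Leaving out only the shallower copy of each shared barcode kept the epidermal ratio inside its interval. Without its 1 highest cell dermis gave 533 and 520 CPM (1.02; 0.931 to 1.12), an interval that spans 1. On the log2 scale the dermal value was 0.64 in all cells, 0.03 without that cell and 0.07 without the 10 highest. A stricter filter of at least 1000 UMIs and at most 5% mitochondrial UMIs also gave 0.07, and it left that cell out, at 7.43% mitochondrial UMIs, and kept 5 of the 10. Without its 10 highest cells lymph node gave 0.97, beside 1.62 in all cells.

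The H1 sum was 913 against 259 CPM in epidermis (3.53; 3.10 to 4.01), 371 against 324 CPM in dermis (1.14; 1.02 to 1.28) and 96.3 against 50.9 CPM in lymph node (1.89; 1.62 to 2.20). Without the shared barcodes the epidermal H1 ratio was 1.56 (1.27 to 1.91) and the dermal one 1.08 (0.957 to 1.22). In those epidermal cells H1 and core histones thus had ratios with overlapping intervals, which was not so in the full libraries.

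H2A had the highest ratio of the 5 classes in each full library, at 18.5 (epidermis), 2.21 (dermis) and 5.91 (lymph node). H3 came next with 6.05, 1.42 and 3.75. H2B gave 4.20, 1.30 and 1.78. H4 gave 3.73, 0.973 and 1.45, and in dermis its interval of 0.813 to 1.16 spanned 1. Replacement histones gave 1.34, 1.08 and 1.41, lower than every class in epidermis. In dermis H4 was nearer to 1, and in lymph node the H4 interval (1.21 to 1.73) held their value. With the shared barcodes left out the epidermal ratios were 1.47 for H2A, 1.41 for H2B, 1.34 for H4 and 0.691 (0.300 to 1.41) for H3, the last from 9 UMIs in cells with a UMI of either marker. In dermis without its highest cell the ratios were 1.02 for H2A (0.872 to 1.19), 1.20 for H3, 1.12 for H2B and 0.887 for H4, all with intervals that span 1.

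**Figure D2:**
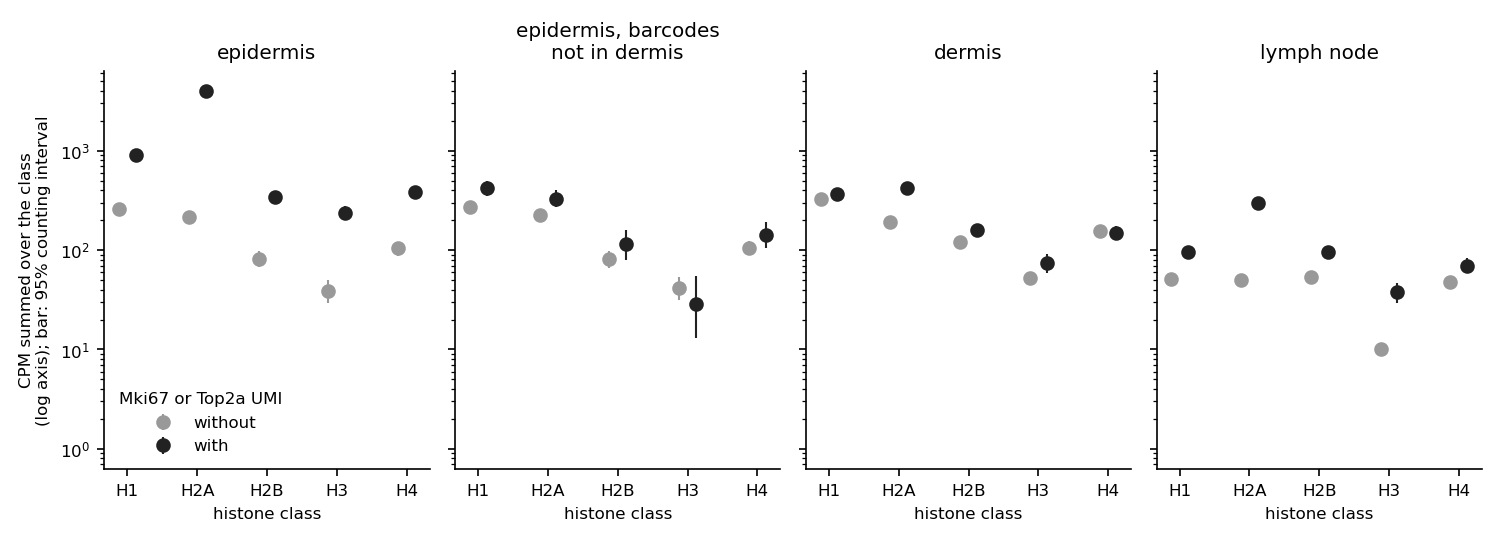
Summed level of each histone class in cells without (grey) and with (black) a Mki67 or Top2a UMI, in CPM on a log axis with 95% counting intervals, for each library and for epidermis without barcodes shared with dermis. H2A in epidermis is at 3995 against 216 CPM in all cells and at 330 against 225 CPM without those barcodes.

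A member was counted as higher at 2-fold or more, with at least 20 CPM in the higher group and 10 UMIs over both groups. A member that passed the level filter only through the higher group had to differ, so these counts describe and are no support. In epidermis 26 of 31 members that passed the filter were higher, where 7.45% of 6157 genes were, and 0 lower, where 3.77% were. In dermis 3 of 15 were higher (Hist1h1b, Hist1h2ap and Hist1h2ae), where 0.464% of 5609 genes were, and 0 lower, where 0.642% were. In lymph node 6 of 10 were higher (Hist1h1b, Hist1h2ap, Hist1h4i, Hist1h2ag, Hist1h2bj and Hist1h1e), where 4.30% of 5285 genes were, and 0 lower, where 0.492% were. For the members that passed, the median log2 ratio was 2.48, 0.07 and 1.03 in the same order, beside 0.08, 0.02 and 0.15 over all genes that passed. Among barcodes found in 1 skin library 1 of 9 was higher in epidermis (Hist3h2a), where 6.15% of genes were, and the same 3 of 15 in dermis, where 0.428% were. In dermis without its highest cell 1 of 15 was higher, namely Hist1h1b, where 0.340% of genes were.

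Of the 35 members with at least 10 UMIs in each library, 34 had an epidermal ratio above 1, 24 a dermal and 30 a lymph node one, and 22 had one above 1 in all 3. The ratio was at least 2 in all 3 libraries for 4 members, namely the H1 gene Hist1h1b and the H2A genes Hist1h2ap, Hist1h2ae and Hist1h2ab. None of the H4 genes reached this, and 1 of 8 H4 genes was above 1 in all 3. Members of H2A were above 1 in all 3 libraries in 9 of 10 cases. With the shared barcodes left out of epidermis and the highest cell left out of dermis, 1 of these 4 stayed at 2 or more. This was Hist1h2ab, from 2 UMIs against 2 in epidermis and 2 against 3 in dermis. Of the 35 members 22 had an epidermal ratio above 1 without the shared barcodes, and 18 a dermal one without the highest cell. By genomic cluster, the Hist1 sum had ratios of 9.30, 1.48 and 3.74 and the Hist3 sum 1.56, 0.790 and 0.845. Epidermis without the shared barcodes had 1.42 for Hist1 and 2.15 (1.31 to 3.44) for Hist3, the reverse order, and dermis without its highest cell 1.06 for Hist1 and 0.802 for Hist3.

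Hist1h2ap stood at 3007 CPM in epidermal cells with a UMI and at 122 CPM in those without (24.7; 21.3 to 28.9). In dermis it was at 244 and 84.4 CPM (2.89; 2.44 to 3.42), and in lymph node at 194 and 6.76 CPM (28.7; 24.2 to 34.2). It was higher in the cells with a UMI in all 3 full libraries. Of its 274 UMIs in dermal cells with a marker UMI 1 cell held 182, and without that cell the levels were 83.0 and 84.4 CPM (0.984; 0.770 to 1.25). Without the shared barcodes its epidermal levels were 197 and 129 CPM (1.52; 1.12 to 2.05) and its dermal levels 261 and 88.3 CPM (2.95).

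Hist1h1b showed the same order. Its levels were 436 and 15.9 CPM in epidermis (27.5; 18.1 to 43.6), 62.3 and 16.5 CPM in dermis (3.77; 2.62 to 5.43) and 26.1 and 1.20 CPM in lymph node (21.8; 14.0 to 34.2). After removing the shared barcodes the epidermal levels were 9.52 and 17.0 CPM (0.561; 0.108 to 1.86), with 3 UMIs in the cells with a marker UMI, so no difference was detectable there. In dermis without them it was at 45.1 and 17.1 CPM (2.64; 1.76 to 3.96). Hist1h2ae gave 473 and 11.9 CPM in epidermis, 51.6 and 14.3 CPM in dermis and 15.6 and 2.43 CPM in lymph node, ratios of 39.8, 3.62 and 6.41. With the shared barcodes left out its epidermal levels were 12.7 and 13.3 CPM. Without the highest dermal cell Hist1h1b had a ratio of 2.56 (1.71 to 3.83) and Hist1h2ae had 1.46 (0.848 to 2.43). Each of these dermal ratios left out either the shared barcodes or that cell. Both held Hist1h1b UMIs of dermal cells with a marker UMI, and the ratio without both was not computed.

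The linker gene Hist1h1c differed from Hist1h1b. It stood at 177 and 110 CPM in epidermis (1.60; 1.26 to 2.03), 190 and 190 CPM in dermis (1.00; 0.855 to 1.17) and 27.6 and 30.0 CPM in lymph node (0.920; 0.688 to 1.21). The intervals of the 2 linker genes do not overlap in any full library. Hist1h1e lay between them, with 30.6 and 14.6 CPM in lymph node (2.09; 1.58 to 2.74) and ratios of 2.0 in epidermis and 1.05 in dermis. Hist1h1d gave 3.57, 0.829 and 2.28. Without the shared barcodes Hist1h1c had an epidermal ratio of 1.79 (1.32 to 2.41), above that of Hist1h1b.

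Hist3h2a was at 30.4 and 19.8 CPM in epidermis (1.53; 0.834 to 2.77), 31.1 and 36.2 CPM in dermis (0.860; 0.574 to 1.26) and 19.1 and 22.8 CPM in lymph node (0.837; 0.588 to 1.16). All 3 intervals span 1. Hist3h2ba gave 1.59, 0.700 and 0.853, again with intervals that span 1. When the shared barcodes were dropped Hist3h2a had an epidermal ratio of 2.46 (1.24 to 4.70), from 16 UMIs against 28.

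Among the other core genes, Hist1h2bc had ratios of 2.75, 1.50 and 1.16, Hist1h2bj 9.86, 1.41 and 12.3, Hist1h2be 5.56, 1.25 and 1.01, and Hist2h2aa1 2.52, 1.08 and 1.29, in the order epidermis, dermis, lymph node. The H3 gene Hist1h3c had 47 UMIs in epidermal cells with a marker UMI and 0 in the others, at least 34.3-fold higher against a floor of 3 UMIs over the group. All 47 lay in shared barcodes. Without those barcodes the epidermal ratios were 1.34 for Hist1h2bc, 2.15 for Hist1h2bj, 1.17 for Hist1h2be and 0.971 for Hist2h2aa1, each with an interval that spans 1. In dermis Hist1h3c had 5 UMIs against 4 (3.90; 0.840 to 19.7) and in lymph node 11 against 4 (42.7; 12.6 to 184). The H3 genes Hist1h3a, Hist1h3e and Hist1h3i gave 2.18, 2.08 and 5.40 in lymph node. The H4 genes Hist1h4d, Hist1h4i, Hist1h4c and Hist1h4h gave 5.11, 3.23, 2.29 and 4.65 in epidermis, 1.33, 0.789, 0.798 and 0.747 in dermis, and 2.0, 2.0, 1.99 and 1.18 in lymph node. Their epidermal ratios without the shared barcodes were 1.62, 0.955, 1.19 and 1.34, again with intervals that span 1.

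In lymph node, where no barcode was shared and most cells were sampled, the members formed a wide range. Of the 57 members with at least 10 UMIs, 55 had a ratio. The others had 0 UMIs in a group and too few in the other for a bound, and were left out of the order. A ratio of at least 2 was found for 35 members and a lower one for 20. The highest were Hist1h2af at 93.1 (20.7 to 856; 12 UMIs against 2), Hist1h3c at 42.7 and Hist1h2ap at 28.7. The lowest were the H4 genes Hist2h4 at 0.350 (0.0713 to 1.04; 3 UMIs against 133) and Hist1h4n at 0.378 (0.122 to 0.897; 5 against 205), followed by the H2B gene Hist2h2be at 0.535 (0.108 to 1.62). Summed over the 20 lower members the levels were 162 and 152 CPM, and over the 35 higher ones 429 and 59.9 CPM.

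This order was then read in the other libraries, which had no part in it. Of the 35 members with a lymph node ratio of at least 2, 25 had 10 UMIs in epidermis and 22 of these had a ratio of at least 2 there, against 10 of 15 of the lower group. In dermis the counts were 5 of 23 and 2 of 18. Median ratios of the groups were 7.45 and 2.50 in epidermis and 1.41 and 1.17 in dermis. The epidermal order was not there without the shared barcodes, with 0 of 10 and 2 of 11 members at 2 or more and medians of 1.19 and 1.34. Nor was the dermal order there without its highest cell, with 1 of 22 and 1 of 17 and medians of 0.986 and 1.05. For these values with cells left out the groups held 36 and 19 members. They were split on rounded ratios, so a member just under 2 was counted in the higher group.

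The annotated transcript ends differed between the groups. Where the annotation gave a coding transcript, members with a lymph node ratio of at least 2 had a median 3′ UTR of 76.5 bases (n = 32) and those with a lower ratio 463 bases (n = 20). A poly(A) signal after the stop codon was present in 5 of 32 (15.6%) and 12 of 20 (60.0%). Grouped the other way, 21 members with the signal summed to 170 CPM in lymph node cells with a marker UMI and 138 CPM in those without (1.23; 1.10 to 1.37), and 44 members lacking it summed to 421 and 73.9 CPM (5.70; 5.26 to 6.17). In dermis the ratios were 1.11 with the signal and 1.73 without it, and in epidermis 4.21 and 11.6. Once the shared barcodes were left out the epidermal order turned, with 1.70 (1.41 to 2.05) for members with the signal and 1.26 (1.05 to 1.51) for those lacking it. Without its highest cell dermis gave 1.00 (0.908 to 1.11) and 1.09 (0.976 to 1.21). Transcripts annotated only to the stop codon cannot show the signal and count as lacking it, and members lacking it also shared more of their sequence with other genes (a median of 53.6% of stretches, against 12.0%), whose part in this was not tested.

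**Figure D3:**
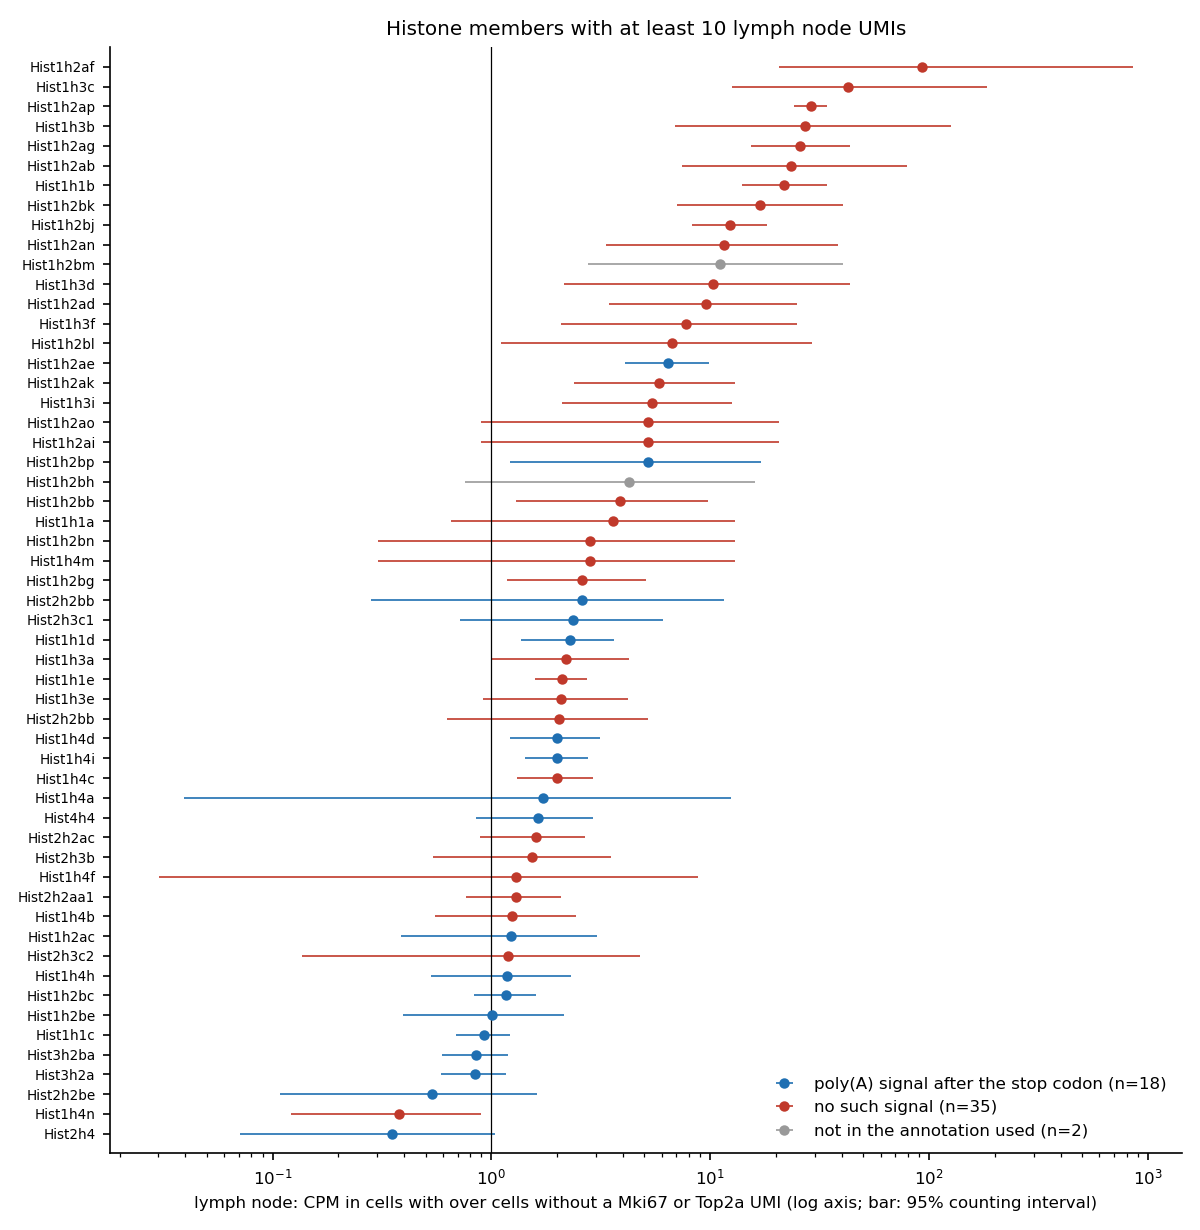
Each point is the ratio of CPM in lymph node cells with over those without a Mki67 or Top2a UMI, on a log axis with its 95% counting interval. Shown are members with at least 10 lymph node UMIs and a ratio (Hist2h2bb appears once for each of its identifiers). Members with a poly(A) signal after the stop codon (blue) lie mostly in the lower part, from Hist2h4 at 0.350 up to Hist1h2ae at 6.41, and those lacking it (red) hold the top of the order up to Hist1h2af at 93.1.

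Promoters were read because members differed in whether they went with Mki67 and Top2a. In the RefSeq table of promoters (GRCm38.p6), 61 of the 69 members were matched. Motifs were searched on both strands in the 250 bases before the start. CCAAT, the letters bound by the factor NF-Y, was found in 82.0% of members and in 33.8% of all 32851 promoters of that length. Promoters with 2 or more CCAAT made up 68.9% of members and 10.1% of all promoters: 100% for H2B, 94.4% for H2A, 80.0% for H3, 16.7% for H1 and 8.33% for H4. TATAAA was found in 47.5% of members and 12.4% of all promoters. ATTTGCAT, the octamer bound by POU-domain factors, was found in 38.9% of H2A and 40.0% of H2B promoters and in 0% of those of H1, H3 and H4, against 1.60% of all promoters. A match is a description of letters and not a binding site.

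CCAAT was present in 90.3% of the promoters of members with a lymph node ratio of at least 2 (n = 31) and in 64.7% of those with a lower ratio (n = 17). By class it was present in 100% for H1, H2A and H2B, 80.0% for H3 and 25.0% for H4. The ratio groups also differ in their classes, whose part in this was not tested. The 120 bases before the start (the more upstream of the RefSeq and GENCODE starts) are given for a pair of members that were higher in lymph node cells with a marker UMI, Hist1h2ap and Hist1h1b, and a pair that were not, Hist1h1c and Hist3h2a. Capitals mark matches of the searched motifs on either strand. A CCAAT on the other strand therefore reads as ATTGG. The octamer on the other strand reads as ATGCAAAT.
Hist1h2ap, chr13:21833508-21833627, minus strand: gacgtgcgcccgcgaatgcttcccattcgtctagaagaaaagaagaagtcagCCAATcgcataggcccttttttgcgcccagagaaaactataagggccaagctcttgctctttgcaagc
Hist1h1b, chr13:21780626-21780745, minus strand: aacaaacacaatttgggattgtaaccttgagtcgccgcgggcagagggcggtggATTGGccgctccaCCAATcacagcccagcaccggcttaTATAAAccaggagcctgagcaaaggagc
Hist1h1c, chr13:23738687-23738806, plus strand: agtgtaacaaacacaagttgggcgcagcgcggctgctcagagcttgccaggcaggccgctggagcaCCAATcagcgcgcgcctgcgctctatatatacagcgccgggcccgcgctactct
Hist3h2a, chr11:58954565-58954684, plus strand: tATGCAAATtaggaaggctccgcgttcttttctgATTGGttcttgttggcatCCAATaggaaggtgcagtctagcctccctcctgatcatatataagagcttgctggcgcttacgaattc
All 4 windows hold CCAAT, Hist1h1b and Hist3h2a on both strands, TATAAA is marked in Hist1h1b, and the octamer is marked in Hist3h2a.

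The number of marker UMIs in a cell showed how the members followed Mki67 and Top2a. Cells were placed at 0, 1, 2 to 4, or 5 or more UMIs of both genes together. In epidermis core histones stood at 441, 597, 560 and 11293 CPM over these bins, in dermis at 520, 483, 567 and 7067 CPM, and in lymph node at 162, 213, 407 and 2024 CPM. The level was far higher in the last bin, which held 12 epidermal, 6 dermal and 23 lymph node cells. The last bin was also the deepest, with median depths of 19394, 8422 and 10638 UMIs, whose part in this was not tested. After removing the shared barcodes no epidermal cell was left in the last bin, and the other bins gave 453 (418 to 491), 574 (478 to 684) and 711 CPM (553 to 899). In the last dermal bin 1 of the 6 cells held 319 of the 358 core UMIs, and the other 5 cells stood at 1120 CPM (797 to 1532).

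Over the same bins Hist1h2ap gave 122, 176, 151 and 7114 CPM in epidermis, 84.4, 71.4, 88.0 and 3770 CPM in dermis, and 6.76, 12.8, 85.5 and 1222 CPM in lymph node. Hist1h1b gave 16.5, 24.8, 72.5 and 493 CPM in dermis and 1.20, 6.01, 15.5 and 138 CPM in lymph node. Both were highest in the last bin in each of these full libraries. In the last dermal bin 1 cell held 182 of the 191 Hist1h2ap UMIs, and the other 5 cells stood at 259 CPM (118 to 491). The same cell held most of the 25 Hist1h1b UMIs of that bin. In the other 5 cells Hist1h1b was not above its level at 2 to 4 marker UMIs. Hist1h1c gave 190, 156, 246 and 237 CPM in dermis and 30.0, 27.0, 23.3 and 36.3 CPM in lymph node. Hist3h2a gave 36.2, 24.8, 36.2 and 79.0 CPM in dermis and 22.8, 23.3, 5.18 and 18.1 CPM in lymph node, with wide intervals in the last bin.

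**Figure D4:**
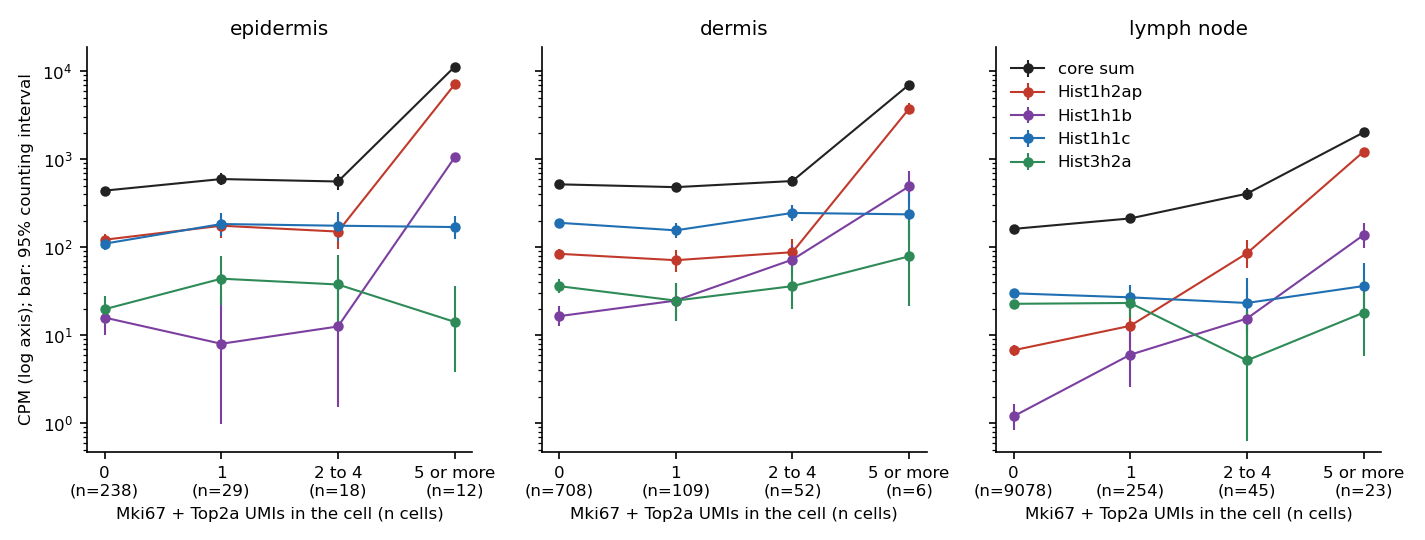
Level of the core sum and of 4 members in cells grouped by their Mki67 and Top2a UMIs, in CPM on a log axis with 95% counting intervals, in each library. The core sum is highest at 5 or more UMIs (11293, 7067 and 2024 CPM), where all epidermal cells are in shared barcodes and 1 of 6 dermal cells holds 319 of 358 core UMIs, while Hist1h1c stays within 110 to 246 CPM in skin and 23.3 to 36.3 CPM in lymph node.

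Cells were also grouped by genes of S phase and of G2 and M phase, after thinning each to 1500 UMIs, with 2 UMIs of a list needed. Core histones in dermis were at 516 CPM in cells with neither list, 463 CPM with the S list only, 2993 CPM with both lists and 525 CPM with the G2 and M list only (566, 185, 25 and 52 cells). In lymph node the levels were 161, 170, 1118 and 259 CPM (6959, 2148, 89 and 112 cells). In epidermis they were 484, 461, 10327 and 2879 CPM (167, 63, 17 and 15 cells). Cells with both lists had the highest core level in each full library. Outside the shared barcodes the 8 epidermal cells with both lists stood at 237 CPM (126 to 406), below the 497 CPM of cells with neither. Without the highest dermal cell the other 24 with both lists stood at 896 CPM (740 to 1075). Hist1h1b gave 831, 296 and 72.4 CPM in cells with both lists of the full libraries. Hist1h1c gave 149, 145 and 31.5 CPM, close to its level in all cells. In the 8 epidermal cells outside the shared barcodes Hist1h1b had 0 UMIs (0 to 67.3 CPM), and Hist1h1c stood at 183 CPM (87.5 to 336). In the 24 dermal cells left without the highest one, Hist1h1b and Hist1h1c both stood at 154 CPM (94.4 to 239), from 20 UMIs each. These cells still included shared barcodes. Dropping the shared barcodes alone took the dermal cells with both lists from 25 to 22 and their Hist1h1b UMIs from 43 to 26. The level without both was not computed.

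Few cells carried much of the histone RNA. In epidermis 3 cells held 50% of the core UMIs, in dermis 109 cells and in lymph node 917 cells. The top 10 cells held 78.1%, 19.5% and 6.88%. For Hist1h2ap the top 10 cells held 89.9%, 41.8% and 44.5%, and for Hist1h1c 31.5%, 17.5% and 2.55%. The top dermal cell had 319 core UMIs, of which 182 were Hist1h2ap, and 18 Mki67 and Top2a UMIs among 15851 UMIs. The next dermal cell had 34 core UMIs. The first epidermal cells had 921 and 891 core UMIs, both in shared barcodes. Without the 10 top cells of each library the core sums were 459, 483 and 171 CPM.

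**Figure D5:**
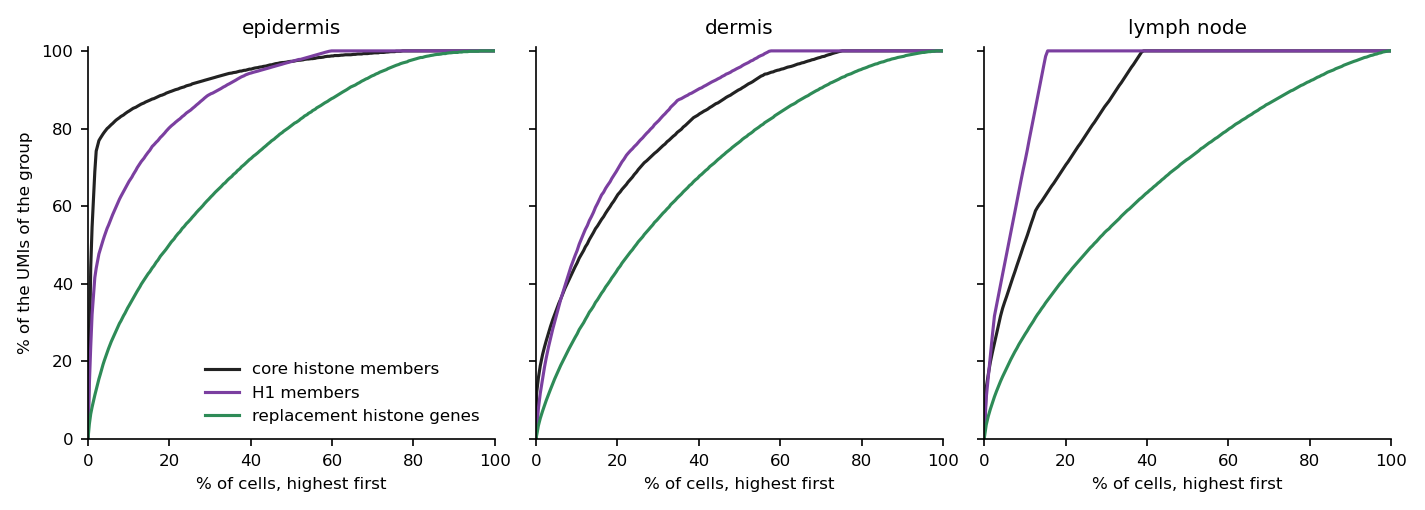
Cumulative percent of the UMIs of a gene group against percent of cells, highest first, for core histones, H1 and replacement histones in each library. The core curve of epidermis rises at once, with 78.1% of UMIs in 10 cells, and the replacement histones rise most evenly in each library.

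The share of cells with a core histone UMI was 77.8% for epidermis (Clopper-Pearson 95% interval 72.6 to 82.4), 75.1% for dermis (72.1 to 77.9) and 38.9% for lymph node (37.9 to 39.9). After thinning to 1500 UMIs, with 35, 47 and 92 shallower cells left out, the shares were 48.9%, 48.1% and 21.4%, so both skin libraries had nearly equal shares. In thinned cells with against without a marker UMI they were 61.0% and 45.3% in epidermis, 49.7% and 47.7% in dermis, and 33.9% and 21.0% in lymph node. In dermis the intervals of 41.7 to 57.7% and 43.8 to 51.5% overlap. No cell type that lacks these genes was sorted, so the share due to free RNA was not tested.

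Between tissues, the core sum of epidermis was 3.15 times that of dermis, that of epidermis 10.2 times that of lymph node, and that of dermis 3.23 times that of lymph node. In cells without a Mki67 or Top2a UMI these ratios were 0.846 (0.773 to 0.925), 2.71 (2.50 to 2.94) and 3.20 (3.04 to 3.38), so the order of epidermis and dermis turned. Without the shared barcodes the log2 ratio of epidermis over dermis was -0.32, beside 1.65 in all cells. H1 in epidermis was 1.38 times the dermal and 8.65 times the lymph node level, and 0.798 and 5.09 times in cells without a marker UMI. The difference between skin and lymph node in cells without a marker UMI was larger for H1 (5.09 and 6.38) than for H2B (1.52 and 2.26).

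Single members were then counted. Epidermis over dermis, 8 of 19 members that passed the filter were higher (Hist1h2ap, Hist1h1b, Hist1h2ae, Hist1h2ab, Hist1h2an, Hist1h3c, Hist1h4d and Hist2h2ac), where 3.74% of genes were, and 0 were lower, where 3.84% were. Hist1h3c led these at 11.0-fold. Among unshared barcodes 0 of 14 were higher, where 2.99% of genes were, and Hist1h2bc was lower (0.499; 0.350 to 0.697), where 3.41% were. In cells without a marker UMI 0 of 12 were higher, where 3.55% of genes were, and Hist1h4i was lower, where 3.95% were. Epidermis over lymph node, 16 of 19 were higher, where 19.7% of genes were, and dermis over lymph node, 11 of 13, where 24.6% were. These counts without the shared barcodes were 5 of 8 (20.1% of genes) and 12 of 14 (24.4% of genes). In cells without a marker UMI the counts were 5 of 8 (20.1% of genes) and 10 of 12 (25.0% of genes). Lower members numbered 0 in these 4 comparisons, where 3.11% and 9.38% of genes were lower in all cells and 3.71% and 9.84% in cells without a marker UMI.

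Between tissues, the balance of higher and lower calls over all genes moved with the scaling, while no member was called lower with either scaling. With TMM factors in place of plain totals, 7 of 16, 11 of 14 and 9 of 12 members were higher, where 2.76%, 9.60% and 15.6% of genes were, and 0 lower, where 5.04%, 14.1% and 21.6% were. Over all genes the higher calls went from 49.3% to 35.4% of calls (epidermis over dermis), from 86.4% to 40.5% (epidermis over lymph node) and from 72.4% to 41.9% (dermis over lymph node). The median log2 ratio of all genes that passed the filter moved from 0.05 to -0.05, from 0.19 to -0.29 and from 0.16 to -0.22. Dermis over lymph node, Hist1h1b, Hist1h2ap and Hist1h1c had ratios of 10.2, 6.80 and 6.37 by plain totals, far above either median.

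Genes that act on histone mRNA and protein were set beside the members. The shares of all genes called higher, 7.45% (epidermis), 0.464% (dermis) and 4.30% (lymph node), are the background to each count that follows. Of 15 genes for histone mRNA processing, 12, 11 and 12 passed the filter in epidermis, dermis and lymph node, and 1, 0 and 1 were higher in cells with a marker UMI, so the shares in epidermis and lymph node were close to the background. Among unshared barcodes 0 of 12 were higher in epidermis. Slbp, the stem-loop binding protein, was at 191 and 95.8 CPM in epidermis (1.99), 143 and 123 CPM in dermis (1.16) and 203 and 77.9 CPM in lymph node (2.60; 2.34 to 2.89). It was the one called in lymph node, and Eri1, an exonuclease of histone mRNA decay, the one in epidermis (2.13). Casp8ap2, which takes part in histone pre-mRNA processing, gave 1.60, 1.25 and 1.31, Srrt gave 1.62, 1.23 and 1.57, and Cpsf3, the endonuclease of 3′ end cleavage, 1.10, 1.03 and 0.816.

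Histone chaperones carry new histones to DNA. Of those that passed the filter, 9 of 18 were higher in epidermis, 0 of 13 in dermis and 4 of 17 in lymph node (Asf1b, Chaf1a, Chaf1b and Mcm2). In unshared epidermal barcodes 1 of 14 was higher (Chaf1b), where 6.15% of genes were. Asf1b, which hands H3 and H4 to the assembly factors, was at 61.2 and 8.57 CPM in lymph node (7.14; 5.71 to 8.88). The most abundant of the list differed less there: Nap1l1 gave a ratio of 1.71, Rbbp4 1.18, Rbbp7 1.51 and Anp32e 1.72.

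Replacement histones showed 2, 1 and 3 of 9 genes higher in epidermis, dermis and lymph node. H2afx, the H2A.X gene, was the one called in each: 192 and 19.2 CPM in epidermis, 62.3 and 27.1 CPM in dermis, and 101 and 36.8 CPM in lymph node (10.0, 2.30 and 2.74). Its call was lost in both skin libraries without the shared barcodes, where 1 of 8 genes was higher in epidermis (H1f0, a linker histone gene) and 0 of 9 in dermis, and without the highest dermal cell 0 of 9 were. The abundant H3.3 genes H3f3a and H3f3b had ratios of 1.12 and 1.14 in epidermis, 1.06 and 1.04 in dermis and 1.23 and 1.12 in lymph node. H2afz, the H2A.Z gene, gave 1.92, 1.28 and 1.91, and H2afj 1.14, 1.05 and 1.13.

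Of the S phase genes that passed, 27 of 28 were higher in epidermis, 2 of 14 in dermis and 24 of 25 in lymph node. Pcna, the sliding clamp of DNA polymerase, had ratios of 3.39, 1.16 and 2.57, and Dut, which removes dUTP, 4.80, 1.20 and 2.67. Mcm6, part of the replicative helicase, gave 2.31, 0.995 and 2.63. The G2 and M genes gave 24 of 26, 5 of 9 and 21 of 21, counting Mki67 and Top2a, which define the groups. Among unshared barcodes the S phase counts were 1 of 11 in epidermis (Chaf1b) and 0 of 11 in dermis, and the G2 and M counts 2 of 6 (Mki67 and Top2a themselves) and 5 of 9. Without its highest cell dermis gave 2 of 13 and 3 of 7. In the dermal library 109 of the 167 cells with a marker UMI had exactly 1, in epidermis 29 of 59 and in lymph node 254 of 322.

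Marker sums of other cell types were read in the same groups. CD8 and NK markers summed to 95.5 CPM in epidermal cells with a Mki67 or Top2a UMI and 25.1 CPM in those without, with Cd8b1 leading at 53.5 CPM and Klrb1c, Ncr1 and Klrd1 at 0 in the former. Keratinocyte markers were lower in cells with a marker UMI, at 15.9 against 31.7 CPM in epidermis and 8.01 against 104 CPM in dermis. In lymph node dendritic cell markers were at 329 and 199 CPM, with Cd207 and Itgax at 0. Their part in the histone results was not tested.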

How the data were processed

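Gene counts of sorted Foxp3-GFP T cells were analysed for 3 libraries, 1 each from epidermis, dermis and lymph node. The deposited matrices hold raw counts of UMIs for each gene and barcode, without normalization. Mapping used Cell Ranger and mm10, per the submitters' processing notes, and the file headers give version 4.0.0 for epidermis and dermis. For lymph node the version, and for all libraries the gene annotation, is not stated there.

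Barcodes were kept with at least 500 UMIs and at most 10% mitochondrial UMIs. UMIs were summed over the cells of a group and scaled to CPM, with exact Poisson 95% intervals; ratios had exact intervals from the binomial split of both counts. A ratio against 0 UMIs used a floor of 3 counts. With 1 library per tissue no test was run and no p-value is given. The call rule (2-fold, 20 CPM, 10 UMIs) was run on all genes and tested on simulated data. Cells were thinned to 1500 UMIs with seed 1. Up to 4 members of each class with the most CPM, the 3 with the highest and the 3 with the lowest lymph node ratio, and up to 4 genes of each list with the most CPM are named; Asf1b, Eri1, H2afx, Hist1h1a, Hist1h1t, Hist1h2ab and those given where a count of calls is small were added after their values were seen. The members and lists were chosen with earlier results of these data known. Alternatives were other filters, thinning, scaling (TMM from edgeR 4.0.16 in R 4.3.3), marker thresholds, and barcodes or the dermal cell highest in core histone UMIs left out, the last chosen after seeing the data. Python 3.11.15, numpy 2.4.6, pandas 2.3.3 and scipy 1.17.1 were used.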

Additional observations from a re-analysis of the deposited data

How the results depend on the processing

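All values here are log2 ratios of the core or H1 sum. For cells with over cells without a marker UMI they were 3.49, 0.64 and 1.62 (core; epidermis, dermis and lymph node, in this order throughout) and 1.82, 0.19 and 0.92 (H1). For tissues they were 1.65, 3.34 and 1.69 (core; epidermis over dermis, epidermis over lymph node and dermis over lymph node, in this order throughout) and 0.47, 3.11 and 2.65 (H1). A value is given below where it left the 95% counting interval of its first value, and the cause was not tested. All 12 values stayed inside with a T cell gate and without the shallower copy of the shared barcodes. Cells with at least 1000 UMIs and at most 5% mitochondrial UMIs moved core to 0.07 in dermis, 2.06 for epidermis over dermis and 1.32 for dermis over lymph node. Without cells above the 95th UMI percentile core gave 1.50, 0.10 and 0.83, and 0.15 and 1.88 between epidermis and the other tissues, and H1 gave 1.24 in epidermis, 0.44 in lymph node, and -0.01 and 2.71 between epidermis and the other tissues. The mean of each cell's CPM gave 2.57, 0.38 and 1.17, and 0.57, 2.40 and 1.84 for core, and 1.34 in epidermis and -0.05, 2.69 and 2.75 for H1. Thinning to 1500 UMIs gave 2.60, 0.42 and 1.26, and 0.79, 2.55 and 1.76 for core, and 1.07 in epidermis and -0.06, 2.72 and 2.78 for H1. Totals without mitochondrial and ribosomal protein genes gave 1.49 in lymph node and 1.77, 3.14 and 1.37 for core, and 0.58, 2.91 and 2.33 for H1.

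With at least 2 marker UMIs core gave 4.01, 1.36 and 2.72, and H1 2.14, 0.74 and 1.67. With at least 1 UMI of Mki67 alone core gave 4.06, 1.23 and 2.26, and H1 2.33, 0.40 and 1.33. With groups also set after thinning core gave 3.19, 0.97 and 1.78, and H1 1.47, 0.71 and 1.16. Between tissues, TMM gave 1.55, 2.87 and 1.32 for core, and 2.63 and 2.27 for H1 over lymph node. Median-of-ratios factors gave 1.55, 2.98 and 1.43, and 2.75 and 2.39. Cells without a marker UMI gave -0.24 and 1.44 for core and -0.32 and 2.35 for H1 between epidermis and the other tissues. Without its member with the most UMIs (Hist1h2ap or Hist1h1c) core gave 0.83, 2.34 and 1.50, and H1 1.19 and 3.81.

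Chosen after seeing the data, at least 5 marker UMIs gave 4.58, 3.77 and 3.60 for core and 2.57, 1.62 and 2.41 for H1. Without all shared barcodes core gave 0.44 in epidermis and -0.32 and 1.40 between epidermis and the other tissues, and H1 0.64, -0.18 and 2.47. Without the 10 cells of each library highest in core UMIs core gave 0.42, 0.07 and 0.97, and -0.07, 1.42 and 1.50, and H1 gave 0.50 in epidermis, 0.55 in lymph node, and -0.17 and 2.43 between epidermis and the other tissues. Without the 1 dermal cell highest in core UMIs core gave 0.03 in dermis, 1.83 for epidermis over dermis and 1.52 for dermis over lymph node. Epidermis over dermis was the core value whose sign turned.

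No paired analysis was possible because each tissue has 1 library and the labels give no replicate numbers, and leaving out a library would empty its group. Small counts limit single members: 8 of the 69 had under 10 UMIs in all 3 libraries together, and intervals cover counting error only.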
